A study of Rattus norvegicus with 200 samples.

Results

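The Kelch-like genes (Klhl) encode adaptor proteins of a ubiquitin ligase, and 34 of the 20361 genes in the count table are described here. They were chosen as the genes whose symbol is Klhl followed by a number and whose mean level over the 200 libraries was at least 0.5 counts per 1000000 counts (CPM). Of 37 genes with such a symbol, Klhl10, Klhl38 and Klhl31 lay under that minimum, at 0.149, 0.093 and 0.035 CPM. The lowest genes inside it were Klhl30 at 0.651 CPM and Klhl40 at 0.724 CPM. A filter on low counts over all genes left 14393 genes for testing, and 32 of the 34 Klhl genes passed it; Klhl30 and Klhl40 did not and have no tests.

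The libraries were made from brains of wild-type male Wistar rats, an outbred stock, and the labels call the cells microglia, the resident macrophages of the brain. HFD stands for the high-fat diet, and the other diet was chow. Each diet was given in the light phase only (light-feeding), in the dark phase only (dark-feeding) or at all hours (ad libitum). The 6 groups were HFD light-feeding (33 libraries), HFD dark-feeding (33), HFD ad libitum (34), chow light-feeding (33), chow dark-feeding (33) and chow ad libitum (34). Libraries were taken at Zeitgeber times (ZT, hours after lights on) 2, 6, 10, 14, 18 and 22, with 32 to 35 libraries per time. The labels do not say whether each library came from its own rat, nor how old the rats were or how long the diets lasted, so every p-value below rests on the spread among libraries, which may be technical.

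Depth per library was 3.78 to 11.6 M counts (M, 1000000). Markers of other brain cells were present in all libraries: the mean FPKM (fragments per kilobase and per 1000000 fragments) over 12 neuron markers exceeded that over 16 microglia markers in 199 of 200 libraries, and those over 10 oligodendrocyte and 9 cerebellar neuron markers did so in all 200. Fewer cells of a type and less RNA per cell cannot be told apart in bulk libraries. The number in a library's title also ran with time, since 133 of 198 libraries next to each other in a diet's numbering shared a Zeitgeber time. Such neighbours formed 67 runs, and each comparison was repeated with the libraries of a group within a run summed into 1 unit, 79 units in all. Each diet has its own numbering, so diet and numbering cannot be told apart.

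A BTB-kelch protein binds the scaffold CUL3 through its BTB domain and a substrate through its kelch propeller, and so brings the substrate to the ligase for ubiquitylation. CUL3 is switched on when NEDD8 is attached to it and is switched off by the COP9 signalosome. Members of the family act in mitosis, membrane traffic, salt transport, metabolism and glutamate receptor turnover, and a few are best known from muscle or lymphocytes.

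Per length, Klhl17 was the most abundant member, at 62.7 ± 6.72 FPKM (SD, n = 200). Klhl17, also called actinfilin, binds actin in neurons and targets a kainate receptor subunit for degradation. Klhl7, a gene mutated in retinitis pigmentosa, followed at 39.3 ± 4.97 FPKM. Klhl18, an adaptor that acts on Aurora A kinase at mitotic entry, had 33.7 ± 2.63 FPKM. Klhl24, which regulates kainate receptors, had 30.9 ± 4.7 FPKM. Klhl5, a close relative of Klhl1 and Klhl4, had 29.4 ± 2.66 FPKM. Klhl2, an actin-binding adaptor for WNK kinases, had 26.4 ± 2.68 FPKM. Libraries ran from 39.6 to 83.1 FPKM for Klhl17 and from 29.2 to 52.7 FPKM for Klhl7. The ranges of each pair of neighbours in this order overlapped, from Klhl17 down to Klhl2. These 6 and Klhl12 at 24.9 FPKM stood above the rest, and the next gene, Klhl22, had 14.9 FPKM.

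The median of the 34 means was 3.91 FPKM, against 6.82 FPKM for all genes in both tables. The genes listed here under muscle, among them Klhl40 and Klhl41 whose proteins protect thin filaments, were low: Klhl33 had 1.13, Klhl41 0.541, Klhl40 0.346, Klhl30 0.263 and Klhl34 0.234 FPKM. The family's B cell gene Klhl14 had 0.236 FPKM, whereas Klhl6, which acts in B cell receptor signalling, had 3.79 FPKM. Klhl1, known from Purkinje cells, had 0.25 FPKM. Among genes above 1 FPKM, the coefficient of variation over libraries was lowest for Klhl12 (7.2%) and highest for Klhl6 (30.8%), Klhl11 (29.0%) and Klhl3 (28.8%).

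**Figure D1:**
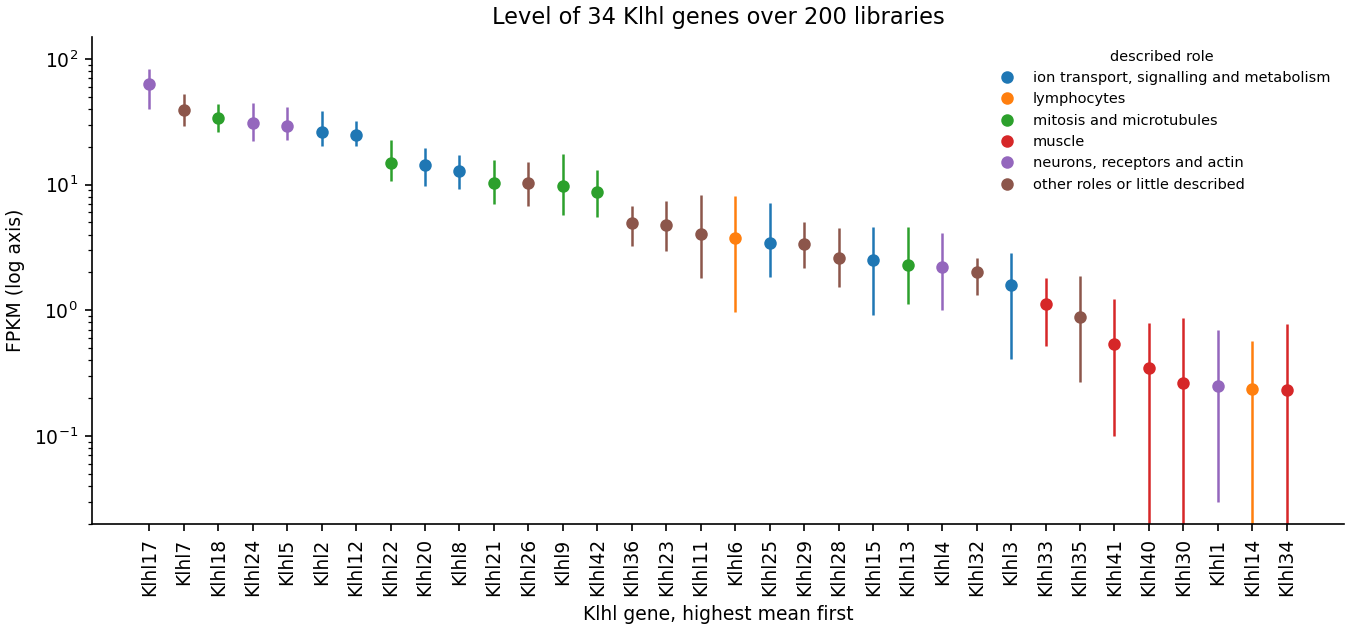
Level of each of the 34 Klhl genes in FPKM on a log axis; points are means over 200 libraries, lines run from the lowest to the highest library (a line that leaves the axis at the bottom reaches 0), and colours give the described role. Klhl17 leads at 62.7 FPKM and 7 genes lie above 20 FPKM, while the genes listed under muscle are at or below 1.13 FPKM.

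Klhl genes followed the markers of different cell types. With the mean of each group and time removed, log2 CPM of each tested member was correlated with the mean of 9 marker lists over 200 libraries. This gave 288 relations, each with a two-sided permutation test within group and time. Libraries near each other in title number may share variation that the permutations do not keep. The correlations were not repeated with runs as units. Of the 288 relations, 169 passed a Benjamini-Hochberg adjusted p of 0.05. Genes outside the family were not correlated with the scores, so whether these counts are particular to Klhl genes was not tested. Neuron markers gave the highest r for 17 of the 32 genes, oligodendrocyte markers for 8, and microglia markers for 1. Not all of these highest values passed. With the neuron score, r was 0.10 for Klhl7, 0.06 for Klhl34, 0.06 for Klhl35 and 0.13 for Klhl42. Their adjusted p (permutation test) was 0.272, 0.517, 0.531 and 0.134. With the oligodendrocyte score, r was 0.16 for Klhl12, 0.12 for Klhl28 and -0.04 for Klhl41. Their adjusted p (permutation test) was 0.0804, 0.227 and 0.715. Past the threshold, 14 members had a positive r with the neuron score, 6 with the oligodendrocyte score and 5 with the microglia score, while 18 had a negative r with the microglia score.

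The gene with its highest r under the microglia markers was Klhl6. Its r with the microglia score was 0.74 (rho 0.70, permutation p = 1e-05 for both, the smallest the permutations could give, adjusted p = 5.2e-05 and 6e-05). Without the 2 libraries farthest from the median score r was 0.73, and within the diets it was 0.69 for HFD and 0.78 for chow. Klhl6 also followed the B cell score (r 0.65) and the T and NK cell score (r 0.63).

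Klhl4 and Klhl2 followed the oligodendrocyte score. Klhl4 had r 0.66 (rho 0.63, permutation p = 1e-05 for both, adjusted p = 5.2e-05 and 6e-05), 0.64 without the 2 farthest libraries, 0.63 within HFD and 0.68 within chow. Klhl2 had r 0.61 (rho 0.59, with the same p-values), 0.60 without those libraries, 0.57 within HFD and 0.63 within chow. Klhl29 ran against that score, with r -0.60 (rho -0.57, same p-values), -0.59 without them, -0.68 within HFD and -0.55 within chow.

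Klhl23 and Klhl1 followed the neuron score. For Klhl23 r was 0.58 (rho 0.53, permutation p = 1e-05 for both, adjusted p = 5.2e-05 and 6e-05), 0.56 without the 2 farthest libraries, 0.51 within HFD and 0.63 within chow. For Klhl1 r was 0.49 (rho 0.47, same p-values), 0.48 without them, 0.29 within HFD and 0.65 within chow.

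Past the threshold, 15 of the 32 genes had a negative r with the endothelial score and 15 with the mural cell score. The share of all genes that do so was not computed. The 3 given here were chosen after their values were seen. Klhl9, which with Klhl13 directs Aurora B kinase in mitosis, had r -0.55 with mural cell markers (rho -0.49, permutation p = 1e-05 for both, adjusted p = 5.2e-05 and 6e-05), -0.52 without the 2 farthest libraries, -0.28 within HFD and -0.68 within chow. Klhl11, known as an autoantigen in a brainstem encephalitis, had r -0.52 with endothelial markers (rho -0.47, same p-values), -0.52 without those libraries, -0.26 within HFD and -0.66 within chow. Klhl22, an adaptor that acts on DEPDC5 upstream of mTORC1, had r -0.51 with endothelial markers (rho -0.41, same p-values), -0.47 without them, -0.36 within HFD and -0.60 within chow. Residuals of libraries share depth and RNA quality, and the part of these in the correlations was not tested.

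**Figure D2:**
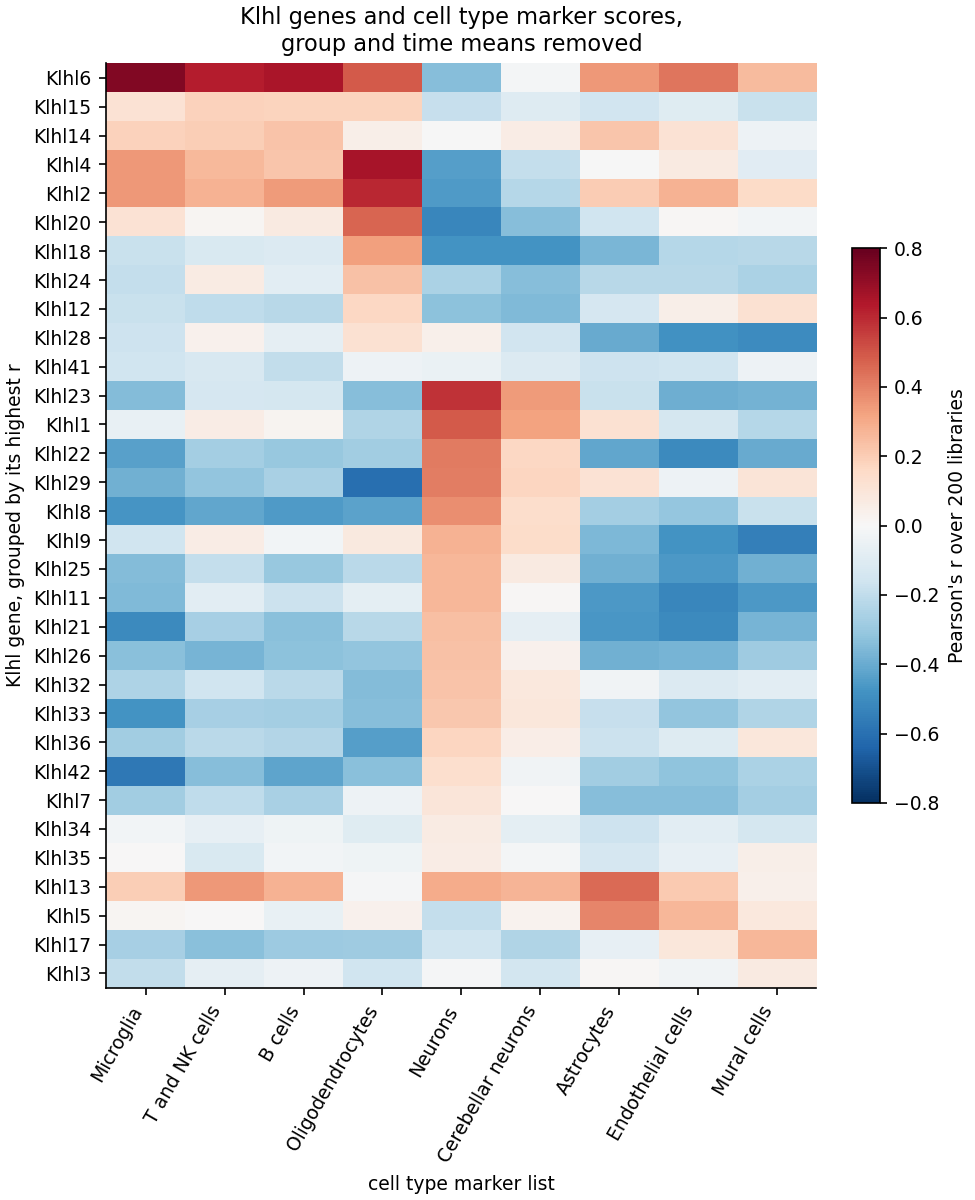
Pearson's r of 32 Klhl genes (rows, grouped by the list with the highest r) with 9 cell type marker scores (columns) over 200 libraries, after group and time means were removed. Klhl6 is the darkest cell under microglia (0.74), Klhl4 and Klhl2 stand out under oligodendrocytes (0.66 and 0.61), and Klhl23 and Klhl1 under neurons (0.58 and 0.49).

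HFD and chow were compared at each feeding schedule with edgeR's quasi-likelihood test, time being a factor, and a Benjamini-Hochberg adjusted p under 0.05 over all tested genes. Klhl24 was the 1 member that was higher on HFD at all 3 schedules. It averaged 140 ± 20.8 CPM in HFD and 123 ± 15.8 CPM in chow under light-feeding (SD, n = 33 each), a log2 fold change of 0.19 ± 0.04 (SE, adjusted p = 0.000134). Under dark-feeding it averaged 139 ± 18.5 CPM in HFD and 122 ± 18.8 CPM in chow (SD, n = 33 each), log2 fold change 0.19 ± 0.04 (adjusted p = 0.000102). With food ad libitum it averaged 148 ± 22.8 CPM in HFD and 129 ± 16.2 CPM in chow (SD, n = 34 each), log2 fold change 0.19 ± 0.04 (adjusted p = 0.000496).

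The medians of Klhl24 were 138, 137 and 145 CPM in HFD light-feeding, dark-feeding and ad libitum, with libraries from 104 to 197 CPM. In chow the medians were 125, 122 and 129 CPM under the same schedules, with libraries from 95.2 to 175 CPM. Each HFD median thus lay above the chow median, while single libraries overlapped widely. The mean was higher on HFD at 5 of 6 times under light-feeding, and at 6 of 6 times under dark-feeding and ad libitum. With the scores of 6 marker lists as covariates, the log2 fold change of Klhl24 was -0.0155 under light-feeding. The 6 lists, used here and below, were neurons, oligodendrocytes, astrocytes, endothelial cells, mural cells, and T and NK cells. Microglia, cerebellar neuron and B cell scores were not among them. With runs as units Klhl24 passed the test under light-feeding and dark-feeding, not ad libitum.

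Under light-feeding, 19 of the 32 tested Klhl genes differed between the diets. Of these, 13 were higher on HFD (40.6% of the members, where 25.2% of all genes were higher) and 6 were lower (18.8%, where 25.1% of all genes were lower). The median log2 fold change was 0.08 over the members and -0.01 over all genes. With FPKM the members called were 10 higher and 9 lower, and the calls over all genes moved to 2741 higher and 4560 lower, against 3621 and 3614 with counts.

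Of the 6 members listed under mitosis and microtubules, 5 were higher on HFD under light-feeding and 1, Klhl13, was lower. Over all genes 25.2% were higher and 25.1% lower, and the role lists were chosen with earlier results of these data known. Klhl9 averaged 42.9 ± 7.51 CPM in HFD and 31.8 ± 5.67 CPM in chow (SD, n = 33 each), a log2 fold change of 0.44 ± 0.05 (SE, adjusted p = 5.07e-10), and it was higher at 6 of 6 times. Its libraries ran from 30.2 through a median of 41.1 to 61.9 CPM in HFD, against 22.7, 29.9 and 48.3 CPM in chow, so the HFD median lay in the upper part of the chow range. Klhl22 had 36.5 ± 4.81 CPM in HFD and 32.2 ± 3.36 CPM in chow (log2 fold change 0.19 ± 0.04, adjusted p = 2.21e-05). Klhl21, which brings Aurora B to the spindle midzone, had a log2 fold change of 0.17 ± 0.05, Klhl42, an adaptor for the microtubule-severing katanin, 0.16 ± 0.05, and Klhl18 0.09 ± 0.02. Klhl13 stood at 6.46 ± 1.42 CPM in HFD and 7.62 ± 1.77 CPM in chow (log2 fold change -0.23 ± 0.08, adjusted p = 0.0123). With the marker scores as covariates the log2 fold change turned to -0.0535 for Klhl18 and to 0.11 for Klhl13. Of the same 6 members, 2 were higher and 1 lower under dark-feeding, and 0 passed ad libitum.

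The other large differences under light-feeding were in Klhl11, Klhl28, Klhl25 and Klhl1. Klhl11 averaged 10.3 ± 2.53 CPM in HFD and 7.68 ± 1.88 CPM in chow (log2 fold change 0.44 ± 0.07, adjusted p = 1.33e-06), with medians of 10.1 and 7.0 CPM. Klhl28 had a log2 fold change of 0.33 ± 0.05 (adjusted p = 6.08e-07). Klhl25, an adaptor for the translation repressor 4E-BP1 and for ATP citrate lyase, averaged 11.4 ± 2.36 CPM in HFD and 9.29 ± 1.52 CPM in chow (log2 fold change 0.29 ± 0.07, adjusted p = 0.000207). Klhl1 was lower, at 0.933 CPM in HFD and 1.32 CPM in chow (log2 fold change -0.46 ± 0.15, adjusted p = 0.00707).

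Klhl17 and Klhl2, both among the most abundant members, fell slightly. Klhl17 averaged 133 ± 11.9 CPM in HFD and 146 ± 16.5 CPM in chow under light-feeding (log2 fold change -0.14 ± 0.04, adjusted p = 0.00186). Klhl2 averaged 69 ± 5.56 CPM in HFD and 73 ± 5.58 CPM in chow (log2 fold change -0.08 ± 0.03, adjusted p = 0.0146). Klhl7 and Klhl18 rose by less than 0.1 on the log2 scale, and Klhl5 had a log2 fold change of -0.04 ± 0.02 (adjusted p = 0.109).

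Under dark-feeding, 13 Klhl genes differed: 9 were higher on HFD (28.1%, all genes 22.8%) and 4 were lower (12.5%, all genes 23.1%). With FPKM the split was 6 higher and 7 lower, beside 2346 higher and 4369 lower over all genes, where counts gave 3279 and 3324. Klhl11 averaged 9.93 ± 1.99 CPM in HFD and 7.25 ± 2.88 CPM in chow (SD, n = 33 each), log2 fold change 0.47 ± 0.09 (adjusted p = 3.98e-05). Klhl4 had a log2 fold change of 0.31 ± 0.08, Klhl28 0.30 ± 0.07, Klhl9 0.26 ± 0.08 and Klhl15, an adaptor for a PP2A subunit, 0.22 ± 0.09. The value of Klhl15 turned to -0.11 with the marker scores as covariates. Klhl6 fell to 8.09 ± 2.39 CPM in HFD, against 10.3 ± 2.76 CPM in chow (log2 fold change -0.37 ± 0.09, adjusted p = 0.000733). Klhl34, at 0.718 CPM in HFD and 1.01 CPM in chow, was also lower (log2 fold change -0.53 ± 0.22, adjusted p = 0.0411).

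With food ad libitum, 3 Klhl genes differed. The 2 higher ones (6.25%, all genes 9.96%) were Klhl24 and Klhl15, and the 1 lower one (3.12%, all genes 10.1%) was Klhl26. Klhl15 averaged 8.23 CPM in HFD and 6.5 CPM in chow (log2 fold change 0.34 ± 0.08, adjusted p = 0.00237). Klhl26 averaged 33.6 ± 4.18 CPM in HFD and 38.1 ± 5.7 CPM in chow (SD, n = 34 each), log2 fold change -0.17 ± 0.04 (adjusted p = 0.00235). DESeq2 called 6 members and FPKM 4, and FPKM gave 1114 higher and 1932 lower over all genes, where counts gave 1434 and 1454.

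The marker lists moved with the diet. Under light-feeding all 10 astrocyte markers were lower on HFD (median log2 fold change -0.71), with summed levels of 339 to 743 CPM in HFD and 464 to 1603 CPM in chow. All 6 tested mural cell markers (-0.98) and 8 of 9 endothelial markers (-0.74) were also lower. Of 8 listed mural markers 6 were tested. Mean levels over the 8 ran from 0.359 CPM for Rgs5, with some libraries at 0, to 17 CPM for Myh11. Microglia markers were lower in 9 of 16 and oligodendrocyte markers higher in 6 of 10. Under dark-feeding 10 of 10 astrocyte markers (median -0.57), 6 of 6 mural markers (-0.84), 6 of 9 endothelial and 10 of 16 microglia markers were lower. Klhl6 and these 10 microglia markers were lower on HFD under dark-feeding. Klhl6 did not pass under light-feeding or ad libitum (edgeR, adjusted p = 0.0824 and 0.0517). Whether Klhl6 and the markers are linked in the diet comparisons was not tested. Ad libitum, 0 of 10 astrocyte, 1 of 6 mural, 1 of 9 endothelial and 6 of 16 microglia markers were lower on HFD. There 2 of 10 oligodendrocyte markers were higher. With marker scores as covariates, 4 members passed under light-feeding, 1 under dark-feeding and 6 ad libitum. The microglia score was not among those covariates. With runs as units 11, 3 and 0 members passed. Over all genes the scores left 1078, 318 and 1762 calls and the runs 4926, 2989 and 0, against 7235, 6603 and 2888 without either. The part of cell mixture in the other calls was not tested.

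**Figure D3:**
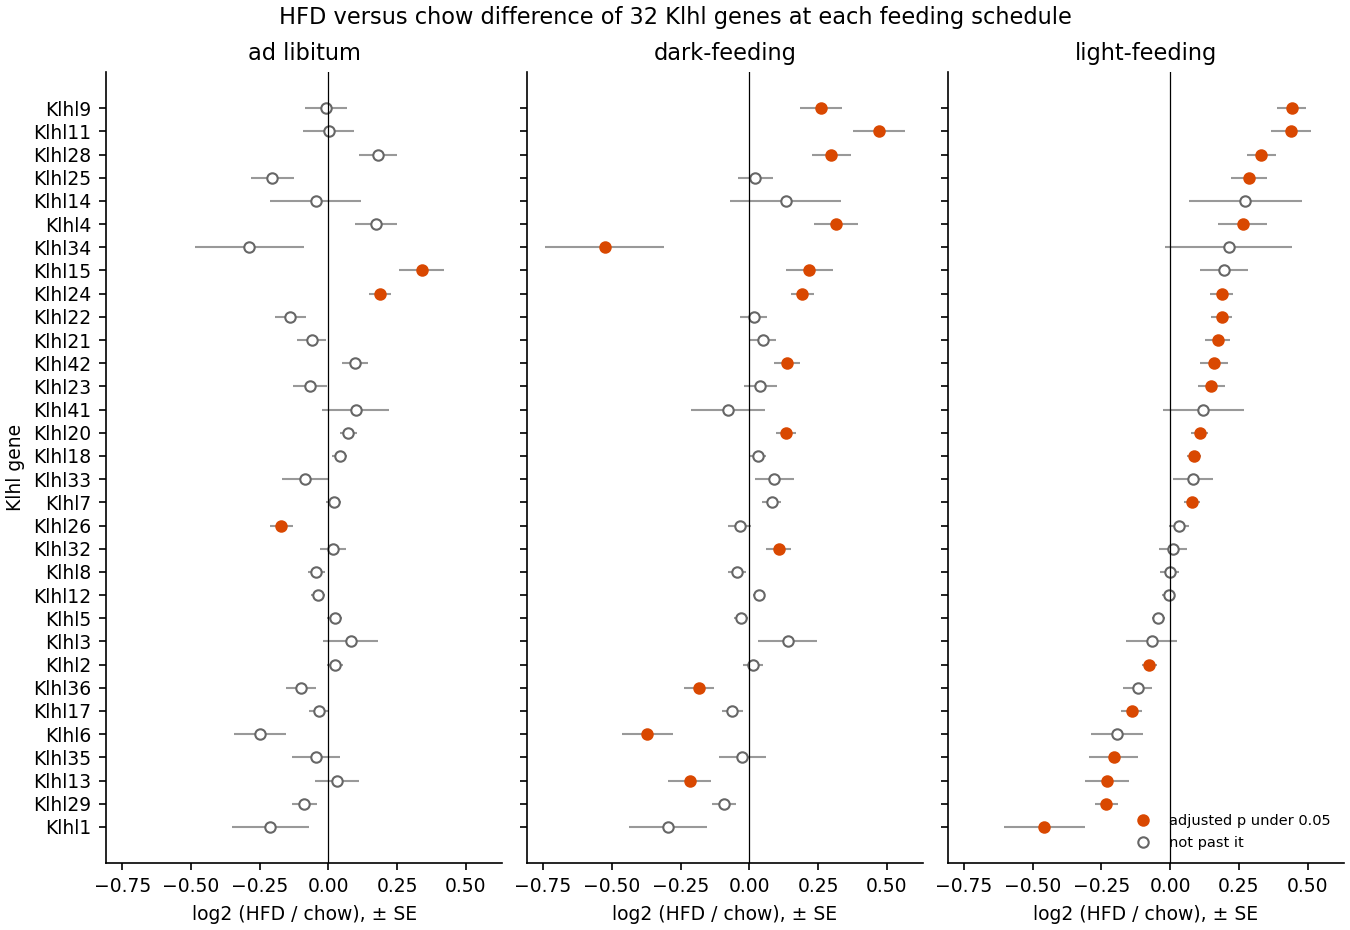
Log2 fold change of HFD over chow with its SE for 32 Klhl genes, ordered by the difference under light-feeding, in 1 panel for each schedule; filled points passed an adjusted p of 0.05. Filled points number 3 ad libitum, 13 under dark-feeding and 19 under light-feeding, and Klhl24 is filled in every panel.

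The diet difference itself depended on the schedule for 5 Klhl genes, Klhl9, Klhl11, Klhl22, Klhl25 and Klhl26 (15.6% of the members, where 6.75% of all genes passed this interaction test). For Klhl25 the difference under light-feeding exceeded that ad libitum by 0.50 ± 0.10 on the log2 scale (adjusted p = 0.00178). For Klhl9 the excess was 0.46 ± 0.10 (adjusted p = 0.00587), for Klhl11 0.44 ± 0.13 (adjusted p = 0.0133), for Klhl22 0.33 ± 0.07 (adjusted p = 0.00587) and for Klhl26 0.21 ± 0.06 (adjusted p = 0.0304). Under dark-feeding the excess over ad libitum was 0.46 ± 0.13 for Klhl11 and between 0.14 and 0.26 for the other 4.

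The group means show this in levels. Klhl9 averaged 42.9 CPM in HFD light-feeding, 40.6 CPM in HFD dark-feeding and 38.7 CPM in HFD ad libitum, and 31.8 CPM in chow light-feeding, 33.9 CPM in chow dark-feeding and 38.7 CPM in chow ad libitum. Klhl25 averaged 11.4, 10.7 and 10.4 CPM in HFD under light-feeding, dark-feeding and ad libitum, and 9.29, 10.5 and 12.0 CPM in chow. The means of the schedules thus ran in opposite order on the 2 diets, though on HFD neither gene passed in any comparison of schedules. No member passed the interaction test with marker scores as covariates, with runs as units, without ZT2 or with the HFD libraries numbered 47 or higher. Without ZT6, 3 did, and the range when each time was left out was 0 to 7 members. Counts over all genes under these alternatives are not given here, so whether the loss is particular to Klhl genes was not tested.

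**Figure D4:**
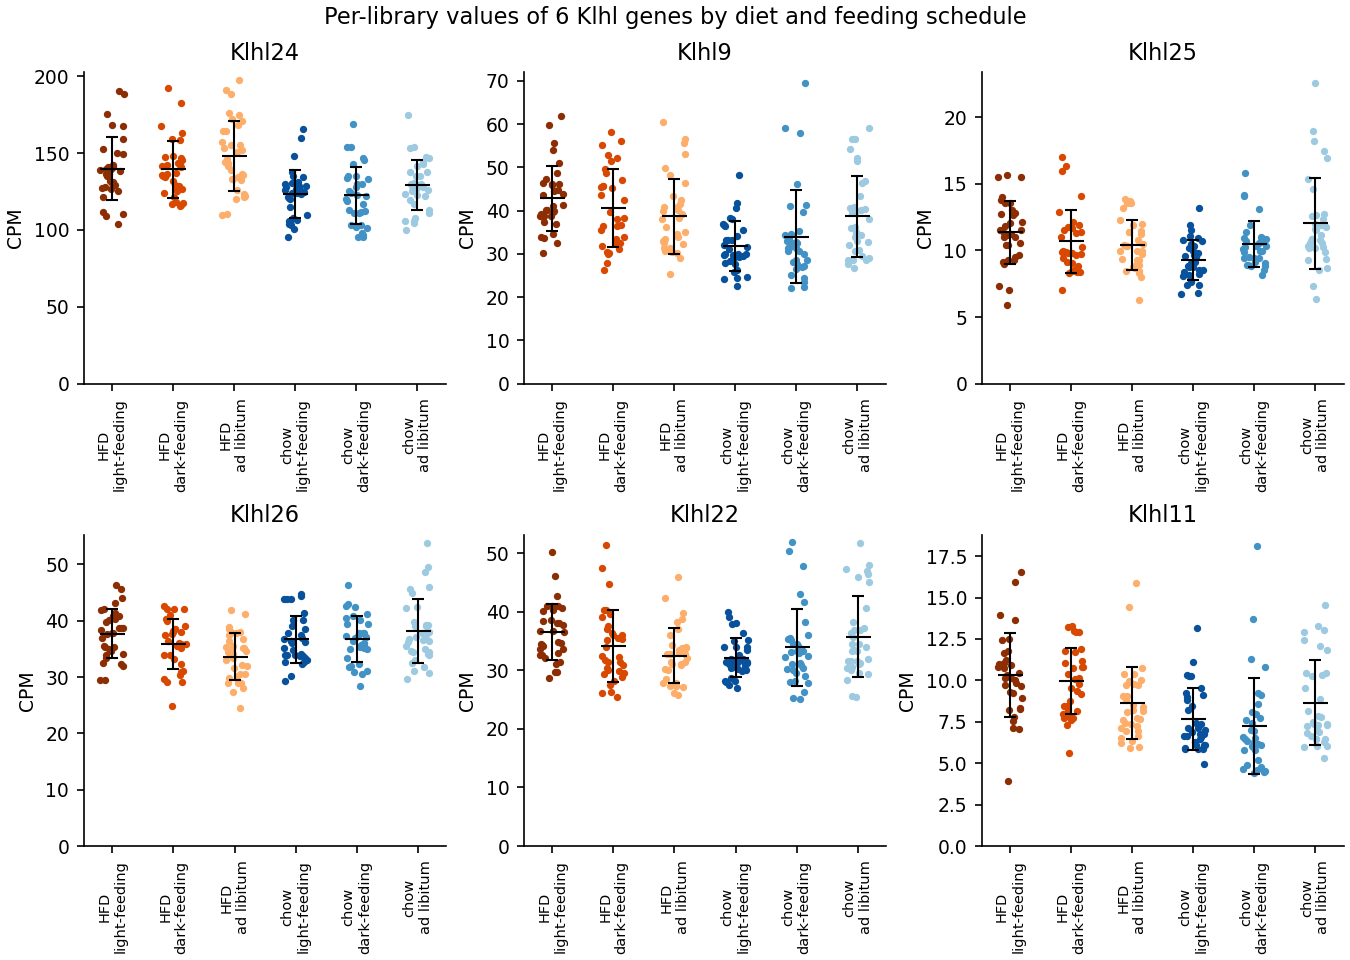
CPM of Klhl24 and of the 5 genes whose diet difference depended on the schedule; each point is a library, the bars are means with SD, and groups run from HFD (reds) to chow (blues). Klhl24 is higher in all 3 HFD groups, whereas the means of Klhl9 and Klhl25 step down from light-feeding to ad libitum on HFD and step up on chow.

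Feeding schedules were compared within each diet. On HFD, 4 Klhl genes differed between light-feeding and ad libitum, of which 3 were higher (9.38%, all genes 5.7%) and 1 was lower (3.12%, all genes 5%). Klhl26 averaged 37.7 ± 4.34 CPM in HFD light-feeding (n = 33) and 33.6 ± 4.18 CPM in HFD ad libitum (SD, n = 34), log2 fold change 0.16 ± 0.04 (adjusted p = 0.00496). Klhl22 averaged 36.5 ± 4.81 CPM in HFD light-feeding and 32.5 ± 4.67 CPM in HFD ad libitum (0.17 ± 0.05, adjusted p = 0.0145). Klhl11 averaged 10.3 ± 2.53 CPM in HFD light-feeding and 8.62 ± 2.18 CPM in HFD ad libitum (0.26 ± 0.08, adjusted p = 0.0307). Klhl2 was lower, at 69 ± 5.56 CPM in HFD light-feeding and 74.9 ± 6.12 CPM in HFD ad libitum (-0.12 ± 0.03, adjusted p = 0.0042), and so at 6 of 6 times.

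The libraries of these groups overlapped: Klhl26 ran from 29.4 through 37.8 to 46.4 CPM in HFD light-feeding and from 24.5 through 34.2 to 42 CPM in HFD ad libitum. Of the 34 HFD ad libitum libraries, 28 had title numbers below 47, whereas all HFD libraries of both restricted schedules had 47 or more. No member passed with a spline of title number, with HFD numbers of 47 or more only, or with runs as units, and the spline gave Klhl11 a log2 fold change of -0.0117. With HFD numbers of 47 or more the log2 fold change was -0.10 for Klhl11 and -0.0232 for Klhl22. How many of all genes passed under these alternatives is not given here. All 6 mural cell markers and 4 of 10 astrocyte markers were lower in HFD light-feeding than in HFD ad libitum.

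On chow, 3 Klhl genes were lower under light-feeding than ad libitum (9.38%, all genes 1.07%) and 0 were higher (all genes 0.528%). Klhl25 averaged 9.29 ± 1.52 CPM in chow light-feeding (n = 33) and 12.0 ± 3.44 CPM in chow ad libitum (SD, n = 34), log2 fold change -0.36 ± 0.08 (adjusted p = 0.0186), and was lower at 6 of 6 times. Its libraries ran from 6.72 through 9.08 to 13.2 CPM in chow light-feeding and from 6.33 through 11.0 to 22.5 CPM in chow ad libitum, so the highest values stood in the ad libitum group. Klhl9 averaged 31.8 ± 5.67 CPM in chow light-feeding and 38.7 ± 9.32 CPM in chow ad libitum (-0.27 ± 0.07, adjusted p = 0.0432). Klhl7 averaged 96.4 ± 10.2 CPM in chow light-feeding and 105 ± 12.6 CPM in chow ad libitum (-0.12 ± 0.03, adjusted p = 0.0465). No member passed without ZT2, ZT6, ZT10 or ZT22, with the spline, with marker scores or with runs as units. Without ZT14, 5 did so, and without ZT18 also 5. Calls over all genes under these alternatives are not given here. In the same comparison 2 of 10 astrocyte markers and 1 of 6 mural markers were higher under light-feeding.

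No Klhl gene passed in the other 4 schedule comparisons. For HFD dark-feeding against ad libitum, 4.7% of all genes passed and 5 members had an unadjusted p under 0.05. For HFD light-feeding against dark-feeding 0.0834% of all genes passed and 6 members had such a p. On chow, 0% of all genes passed for dark-feeding against ad libitum and 0% for light-feeding against dark-feeding. There 7 and 2 members had an unadjusted p under 0.05. The shares of all genes in these comparisons are at the adjusted threshold, so they are no yardstick for the unadjusted member counts. DESeq2 called 0 members in each of the 4. For HFD dark-feeding against ad libitum, the spline of title number called 1 member, Klhl20, and leaving out ZT6 called 1, Klhl11.

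A 24 h rhythm, fitted as a cosine and sine over all 200 libraries with group as a factor, was found in 18 of the 32 Klhl genes (56.2%, where 41% of all genes passed). The size of a rhythm is given as the log2 ratio of the fitted peak to the trough. Its median was 0.21 over the 18 genes and 0.17 over all rhythmic genes, against 0.77 over 12 core clock genes, all of which passed. The fitted peak lay from ZT16 to ZT20 in 11 of the 18 Klhl genes (61.1%), where 36.6% of all rhythmic genes peaked.

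Klhl7 had the smallest p. It averaged 97.6 ± 9.83 CPM at ZT2 (SD, n = 34), 92.4 ± 6.54 at ZT6 (n = 32), 93.1 ± 7.58 at ZT10 (n = 33), 105 ± 13.3 at ZT14 (n = 32), 114 ± 11.4 at ZT18 (n = 34) and 107 ± 13.2 CPM at ZT22 (n = 35). The peak to trough log2 ratio was 0.30 ± 0.03 (SE) with a peak at ZT18.7 (edgeR, adjusted p = 1.17e-17). The mean of Klhl7 was thus highest at ZT18, in the middle of the dark phase, and lowest at ZT6, in the middle of the light phase.

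Klhl24 averaged 126 ± 19.8, 125 ± 14.6, 131 ± 16.2, 135 ± 19.5, 149 ± 22.2 and 137 ± 24 CPM from ZT2 to ZT22, with a ratio of 0.22 ± 0.04 and a peak at ZT17.5 (adjusted p = 1.33e-06). Klhl12, which ubiquitylates the COPII coat protein SEC31 for large cargo, averaged 74.1 ± 5.56, 72.5 ± 4.18, 72.3 ± 4.07, 75 ± 4.25, 79.9 ± 5.68 and 74.7 ± 5.52 CPM over the same times (ratio 0.12 ± 0.02, peak ZT18.4, adjusted p = 1.53e-06). Klhl21 averaged 36.7 ± 7.45, 33.5 ± 5.15, 34.7 ± 4.32, 37.8 ± 5.09, 40.4 ± 5.85 and 37.8 ± 6.43 CPM (ratio 0.24 ± 0.04, peak ZT18.7, adjusted p = 4.78e-06). In all 3 the highest mean stood at ZT18.

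Klhl42 averaged 25.4 ± 4.38, 23.9 ± 3.02, 24.8 ± 2.95, 25.2 ± 4.3, 28.6 ± 4.21 and 27.3 ± 4.32 CPM from ZT2 to ZT22 (ratio 0.23 ± 0.04, peak ZT19.4, adjusted p = 9.75e-06). Klhl8, whose Caenorhabditis elegans counterpart limits a receptor-clustering protein at synapses, averaged 38.7 ± 4.13, 37.6 ± 3.14, 37.3 ± 3.12, 40.3 ± 3.72, 41.5 ± 4.34 and 40.3 ± 4.1 CPM (ratio 0.15 ± 0.03, peak ZT18.7, adjusted p = 1.02e-05). Other genes had their fitted peaks in the light phase: Klhl5 at ZT10.9 (0.11 ± 0.02), Klhl6 at ZT6.5 (0.26 ± 0.08), Klhl3, the kidney WNK adaptor, at ZT6.3 (0.28 ± 0.08), Klhl18 at ZT4.6 (0.09 ± 0.02) and Klhl26 at ZT3.2 (0.15 ± 0.03). Of the marker lists named above with Klhl6, 6 of 16 microglia markers and 3 of 10 T and NK cell markers were rhythmic. So were 4 of 4 tested B cell markers, where 41% of all genes passed. The largest ratio, 0.52 ± 0.18, belonged to Klhl34, whose level was under 1.1 CPM at each time.

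Without ZT18, 11 members passed, and with runs as units 7 did, namely Klhl24, Klhl7, Klhl5, Klhl12, Klhl8, Klhl21 and Klhl42. Over all genes 3271 passed without ZT18 and 2379 with runs as units, against 5902 in the pooled fit. Since neighbours in title number shared times, time and the order of libraries are only partly separated.

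**Figure D5:**
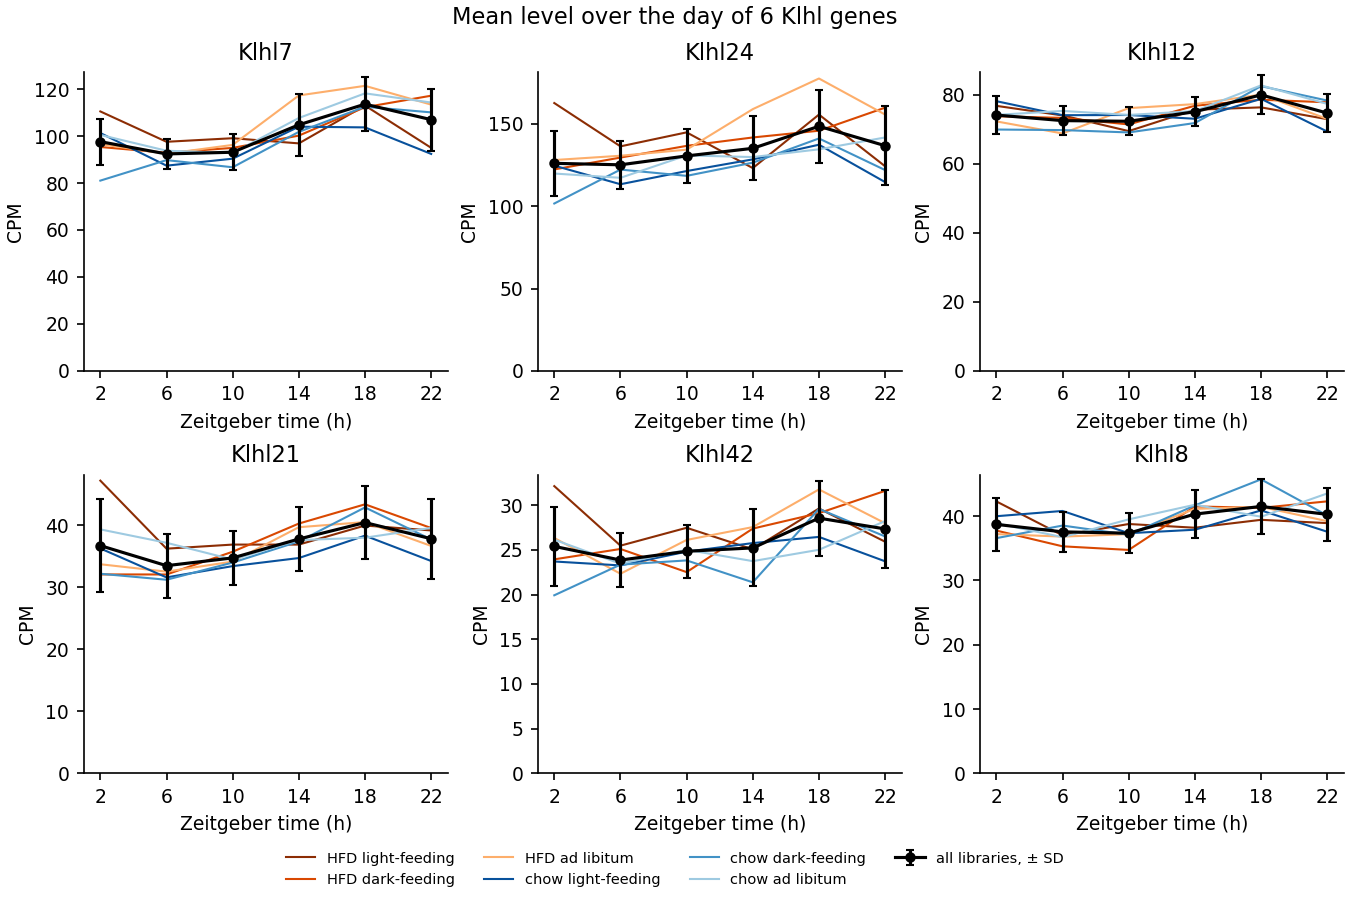
Mean CPM by Zeitgeber time of the 6 Klhl genes with the smallest p in the rhythm test; black points are means over all libraries with SD, and coloured lines are the 6 groups. The black lines are highest at ZT18 in all 6 panels, and HFD light-feeding lies above the other groups at ZT2 for Klhl7, Klhl24, Klhl21 and Klhl42.

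Within single groups, the number of rhythmic Klhl genes was 0 in HFD light-feeding (all genes 0.841%), 12 in HFD dark-feeding (27.5%), 13 in HFD ad libitum (19.6%), 6 in chow light-feeding (20.3%), 11 in chow dark-feeding (22.9%) and 2 in chow ad libitum (4.56%). In HFD light-feeding 7 members had an unadjusted p under 0.05, DESeq2 called 0, and 7 passed when time was a factor of 6 levels. Over all 14393 genes, 2332 had such a p there and 1204 passed with time as a factor. Klhl7 passed in 4 groups, with ratios of 0.34 in HFD dark-feeding, 0.44 in HFD ad libitum, 0.43 in chow dark-feeding and 0.37 in chow ad libitum and peaks between ZT17.8 and ZT19.5. Klhl9 passed in 4 groups with ratios from 0.42 to 0.61. With runs as units, 4 members passed in HFD dark-feeding (Klhl9, Klhl21, Klhl22 and Klhl29) and 0 in each other group. With marker scores 1 member passed in HFD dark-feeding, 5 in HFD ad libitum, 0 in chow light-feeding and 1 in chow dark-feeding. In HFD ad libitum 6 passed without ZT2 and 6 without ZT14. Without ZT18, 2 passed in HFD ad libitum and 5 in chow dark-feeding, and without ZT6, 2 passed in chow light-feeding.

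The rhythm differed among the 6 groups for 16 Klhl genes (50%, where 46.2% of all genes passed). Klhl29 had the smallest adjusted p, 4.97e-05. Its fitted peak was at ZT7 in chow light-feeding (ratio 0.33 ± 0.08) and at ZT20.4 in chow dark-feeding (0.37 ± 0.07), and at ZT21.5 in HFD dark-feeding (0.38 ± 0.10). Klhl20, an adaptor for the death kinase DAPK1 and for PML, peaked at ZT16.3 in chow light-feeding (0.25 ± 0.06) and at ZT2.7 in HFD dark-feeding (0.28 ± 0.07). Klhl4 peaked at ZT18.7 in chow light-feeding (0.66 ± 0.15) and at ZT7 in HFD dark-feeding (0.60 ± 0.16). Shifts between single pairs of groups were not tested. With marker scores 10 members passed, without ZT2 6 did, and with runs as units none did. The counts of all genes under these settings are not given here.

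Among 33 Klhl promoters in the RefSeq table of rat build GRCr8 (300 bases, of which 250 lie before the gene's start), Klhl22, Klhl28 and Klhl30 held the E-box CACGTG, bound by CLOCK and ARNTL, and Klhl9 held the D-box TTATGTAA, bound by DBP; both strands were searched. An E-box stood in 6.42% of all 33469 promoters and a D-box in 0.893%. The REV-ERB and ROR element core TAGGTCA was in 2.63% of all promoters and in no Klhl one. The promoters of the 3 genes with a match that also passed the rhythm test over all libraries, all with peaks from ZT18.2 to ZT19.1, are shown in the sense of the gene with the match in capitals; a match is a description of the letters only.
Klhl22 promoter, GRCr8 chr11:96735966-96736265, minus strand: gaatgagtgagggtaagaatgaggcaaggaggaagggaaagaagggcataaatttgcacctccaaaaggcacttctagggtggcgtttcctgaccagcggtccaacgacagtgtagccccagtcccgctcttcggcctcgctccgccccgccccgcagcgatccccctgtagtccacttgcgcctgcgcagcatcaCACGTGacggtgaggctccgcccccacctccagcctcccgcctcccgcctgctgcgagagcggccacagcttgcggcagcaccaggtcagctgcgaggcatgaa
Klhl28 promoter, GRCr8 chr6:88755023-88755322, minus strand: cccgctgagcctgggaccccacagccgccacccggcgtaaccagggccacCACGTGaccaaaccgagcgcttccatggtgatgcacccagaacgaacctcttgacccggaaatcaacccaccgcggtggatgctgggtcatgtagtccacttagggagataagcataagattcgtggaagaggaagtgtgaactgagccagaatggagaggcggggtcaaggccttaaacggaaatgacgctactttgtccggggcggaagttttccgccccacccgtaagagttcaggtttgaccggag
Klhl9 promoter, GRCr8 chr5:108453627-108453926, minus strand: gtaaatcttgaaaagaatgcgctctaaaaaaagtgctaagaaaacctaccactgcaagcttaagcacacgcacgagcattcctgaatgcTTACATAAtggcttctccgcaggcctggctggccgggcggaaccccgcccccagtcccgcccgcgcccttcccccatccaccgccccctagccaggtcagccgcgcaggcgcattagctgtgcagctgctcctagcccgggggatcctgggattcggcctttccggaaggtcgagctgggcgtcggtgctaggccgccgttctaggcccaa
The E-box of Klhl22 begins 54 bases before the start and that of Klhl28 200 bases before it, and the D-box of Klhl9, here read on the other strand, begins 161 bases before. In the pooled fit Klhl22 had a peak to trough log2 ratio of 0.20 ± 0.04 with a peak at ZT19.1, Klhl28 0.20 ± 0.05 at ZT18.2 and Klhl9 0.27 ± 0.06 at ZT18.5. The other 15 rhythmic members held none of the 3 motifs in this window, Klhl7 included.

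Other genes of the ligase were counted in the same tests, in which 25.2% of all genes were higher and 25.1% lower under light-feeding, 22.8% and 23.1% under dark-feeding, and 9.96% and 10.1% ad libitum. Of 25 genes of the CUL3 core and its neddylation cycle, 8 were higher and 9 lower on HFD under light-feeding (median log2 fold change 0.04), 7 and 9 under dark-feeding (0.02) and 5 and 4 ad libitum (0.02). Cul3 itself rose under light-feeding (0.28 ± 0.04, adjusted p = 3.66e-07), as did Cand1, which exchanges substrate adaptors on cullins (0.20 ± 0.04), while Ube2m, the NEDD8-conjugating enzyme, fell (-0.19 ± 0.03). Nedd8 fell under dark-feeding (-0.39 ± 0.06, adjusted p = 9.67e-07). Of 11 tested BTB-kelch adaptors with other names, 7 were higher and 1 lower under light-feeding (median 0.25), 5 and 1 under dark-feeding (0.17) and 1 and 1 ad libitum (0.03).

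Of 20 known substrates of Klhl adaptors, 7 were higher and 7 lower on HFD under light-feeding (median 0.00), 5 and 6 under dark-feeding (0.01) and 3 and 2 ad libitum (-0.04). Aurka, the Aurora A gene and a substrate of KLHL18, fell under light-feeding (-0.40 ± 0.07, adjusted p = 7.23e-07) and dark-feeding (-0.30 ± 0.07). Wnk1, a substrate of KLHL2 and KLHL3, was higher ad libitum (0.18 ± 0.04, adjusted p = 0.000409) and under dark-feeding (0.19 ± 0.04). Over the day, 9 of 25 CUL3 core and neddylation genes, 7 of 11 other BTB-kelch adaptors and 9 of 20 substrates were rhythmic over all libraries, where 41% of all genes passed. Acly, the ATP citrate lyase gene and a KLHL25 substrate, peaked at ZT15.3 (0.25 ± 0.03), and Ivns1abp, a BTB-kelch gene, at ZT16.4 (0.27 ± 0.03).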

How the data were processed

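RNA from brain cells labelled microglia was sequenced in 200 libraries. Per the labels' protocols, messenger RNA was captured on beads before strand-specific library construction. The submitters' processing notes name the build Rnor_6.0; which aligner and counter were used is not given in the sources used here. Of the tables the authors deposited, one holds expected counts, not normalised, for 20361 genes. In it 8.03% of entries were not whole (tolerance 1e-06), and they were rounded here before testing, where raw counts had been foreseen. The other, as deposited by the authors, holds FPKM, scaled for gene length and sequencing depth, for 17611 genes.

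Counts were scaled by TMM, filtered over the 6 groups (14393 genes kept) and tested with edgeR 4.0.16 in R 4.3.3, p-values being Benjamini-Hochberg adjusted over all kept genes. CPM in the Results and below are TMM-scaled. The values used to choose the members are the exception: they are counts over each library's total. Marker correlations used 100000 permutations. FPKM were tested with limma on log2(FPKM + 0.1), and DESeq2, marker scores, title number and left-out times were alternatives. The fits were checked on simulated counts. Depth, 3.78 to 11.6 M counts per library, limits the lowest genes.

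Members, gene lists and roles were chosen with earlier results of these data known. Full values were given to members past the threshold in a schedule comparison or in all 3 diet comparisons, the 6 with the smallest rhythm p, and the 6 highest in FPKM; others were named singly after their values were seen. Lists name up to 3 genes with the smallest p. Promoters are from RefSeq, build GRCr8, with 33 of 34 members matched by gene ID.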

Additional observations from a re-analysis of the deposited data

Results flagged for a closer look

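For 5 Klhl genes the difference between HFD and chow depended on the feeding schedule in edgeR's interaction test. The difference under light-feeding minus that ad libitum, on the log2 scale, was 0.46 for Klhl9, 0.21 for Klhl26, 0.33 for Klhl22, 0.50 for Klhl25 and 0.44 for Klhl11. These were 15.6% of the members, where 6.75% of all genes passed, and no member passed with marker scores as covariates, with runs as units, without ZT2 or with HFD numbers of 47 or more.

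For 16 Klhl genes the 24 h rhythm differed among the 6 groups in edgeR's test of the interaction of group with the cosine and sine terms. The adjusted p was 4.97e-05 for Klhl29, 0.000581 for Klhl20, 0.000992 for Klhl22, 0.00127 for Klhl6, 0.00148 for Klhl4, 0.00285 for Klhl9, 0.0043 for Klhl18 and 0.00596 for Klhl7. It was 0.012 for Klhl21, 0.0149 for Klhl24, 0.0187 for Klhl11, 0.0245 for Klhl12, 0.0259 for Klhl25, 0.0391 for Klhl33, 0.041 for Klhl14 and 0.0464 for Klhl8. The 16 genes were 50% of the members, where 46.2% of all genes passed, and none of them passed with runs as units.

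Klhl9, Klhl11, Klhl22 and Klhl25 passed both tests. Groups of 33 or 34 libraries were too large for the check of single outlying samples.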

How the results depend on the processing

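Counts below are members called, in each case against the count in the report. Where the report gives no count over all genes for a setting, whether a change was particular to Klhl genes was not tested. With DESeq2, 6 passed for HFD versus chow ad libitum and 1 for the rhythm in chow ad libitum. With FPKM and with no filter, 1 passed for chow light-feeding versus ad libitum. With marker scores as covariates, 4, 1 and 6 passed for HFD versus chow under light-feeding, dark-feeding and ad libitum. Those scores left 0 for the interaction, 1 and 0 for light-feeding versus ad libitum on HFD and chow, and 10 for rhythm differences. Rhythms with them numbered 1 in HFD dark-feeding, 5 in HFD ad libitum, 0 in chow light-feeding and 1 in chow dark-feeding.

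With runs as units, chosen after seeing the data, 11, 3 and 0 passed for the diet comparisons under light-feeding, dark-feeding and ad libitum. Runs left 0 for the interaction, for light-feeding versus ad libitum on both diets and for rhythm differences. Runs left 7 for the rhythm over all libraries, 4 in HFD dark-feeding and 0 in HFD ad libitum and each chow group. HFD title numbers of 47 or more, also added later, left 0 for the interaction and 0 for light-feeding versus ad libitum. A spline of title number left 1 for dark-feeding versus ad libitum on HFD and 0 for light-feeding versus ad libitum on either diet. Time as a factor gave 7 rhythms in HFD ad libitum and 7 in HFD light-feeding. Without 2 chow libraries whose clock genes stood apart, no count moved by over 1.5 times.

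Leaving out each time gave 3 to 5 members for the diet comparison ad libitum, 0 to 7 for the interaction, 2 to 5 for light-feeding versus ad libitum on HFD, 0 to 5 for it on chow and 0 to 1 for dark-feeding versus ad libitum on HFD. Rhythms ranged from 11 to 18 over all libraries, 0 to 1 in HFD light-feeding, 2 to 13 in HFD ad libitum, 2 to 9 in chow light-feeding, 5 to 10 in chow dark-feeding and 1 to 2 in chow ad libitum, and rhythm differences from 6 to 17.

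Of 1302 values of single genes under alternatives, 948 kept direction and call, 346 kept direction only and 8 turned round. With marker scores these were Klhl15 under dark-feeding (-0.11) and, under light-feeding, Klhl18 (-0.0535), Klhl24 (-0.0155), Klhl4 (-0.0115) and Klhl13 (0.11). For HFD light-feeding versus ad libitum they were Klhl11 with the spline (-0.0117) and, with numbers of 47 or more, Klhl11 (-0.10) and Klhl22 (-0.0232). The cause of these changes was not tested. Of 169 correlations past the threshold, 165 kept their sign within HFD and 169 within chow and with FPKM. No paired analysis was possible because the labels give no replicate numbers.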

Other observations

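The Klhl genes at the edge of detection differed in how often they were seen. Klhl40 and Klhl30 had counts in 199 and 197 of 200 libraries, with medians of 0.698 and 0.623 CPM and highest values of 1.64 and 2.15 CPM. Klhl10, under the CPM minimum, had counts in 131 libraries and up to 0.691 CPM. Klhl38 had counts in 96 libraries and up to 0.535 CPM, and Klhl31 in 48 and up to 0.287 CPM. Klhl41, a muscle gene at 1.09 CPM, passed the rhythm test in chow ad libitum alone of the 6 groups, with a peak to trough log2 ratio of 1.03 ± 0.24 and a peak at ZT21.4 (edgeR, adjusted p = 0.0218).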
